A study of Mus musculus with 610 samples.

Results

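Tcf7 and Lef1 encode TCF-1 and LEF-1, and both were measured here as 2 of 48 assays on 610 individual mouse thymus cells. They were taken as a pair because they are the TCF/LEF family members among those assays, and every cell was used. Each cell was captured on a Fluidigm C1 device and read by reverse transcription, preamplification and quantitative PCR. A reaction at a threshold cycle of exactly 24, the ceiling of the deposited values, was taken as not detected. Level means 24 minus the threshold cycle, with 0 for a reaction that was not detected and 1 unit for each PCR cycle.

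TCF-1 and LEF-1 are DNA-binding proteins with a single HMG box, and both can recruit beta-catenin to target genes of the Wnt pathway or hold such genes silent together with Groucho-family corepressors. In the thymus, TCF-1 is induced by Notch signals in early progenitors and opens the T lineage programme, while LEF-1 acts later and partly overlaps with it. In the interleukin 17 producing gamma delta T cells (Tgd17 cells), the related HMG box factors Sox13 and Sox4 are lineage regulators, and TCF-1 has been linked to the same programme.

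The 4 sorted populations differed in genotype, age and gate. B6 DN1d cells were wild-type C57BL/6J thymocytes of postnatal days 7 to 10 that carried CD44 and CD24 and lacked cKit, CD25, lineage markers and the delta receptor chain, and they gave 223 cells in 3 runs. Tcrd-/- DN1d cells were sorted in the same way at the same ages from mice homozygous for the Tcrd tm1Mom allele, and they gave 86 cells in 1 run. Rag1-/- cKit- cells came from mice without the recombinase Rag1 at postnatal days 0 to 2, were CD44 positive and negative for CD25 and cKit with no gate on CD24, and gave 223 cells in 3 runs. B6 DN2 cells were C57BL/6J thymocytes of days 7 to 10 that carried CD44, CD25 and cKit, and they gave 78 cells in 1 run. The run is the replicate, no label ties a run to an animal, and p-values therefore reflect how runs vary, which can be technical. Each run held 1 population, so that run and population cannot be told apart.

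Runs held 52 to 89 cells and a mean of 19.2 to 30.9 detected assays per cell, which was lowest in B6 DN1d and highest in the Tcrd-/- run. Gapdh was detected in every cell, at mean levels of 14.2 to 15.6 by run. The DN2 run bore the progenitor protease gene Cpa3 in 100% of cells and Rag2 in 57.7%. Sox13 was detected in 42.1% ± 9.14 of B6 DN1d cells (SD, n = 3) and in 96.5% of Tcrd-/- cells. The myeloid markers Spi1, Csf2rb2 and Gp49a were detected in some B6 DN1d cells, as given below, and Csf1r in 0 of 223.

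Sequence around a start of each gene is shown because the share of cells with both genes differed widely between the populations. Tcf7 lies on the minus strand of chromosome 11 (chr11:52246527-52283383, RefSeq gene 21414), and Lef1 on the plus strand of chromosome 3 (chr3:131110297-131224357, gene 16842), in assembly GRCm38.p6. RefSeq gave 2 windows of 300 bases around annotated starts for Tcf7 and 4 for Lef1. The Lef1 windows at chr3:131110047-131110346 and chr3:131110073-131110372 overlap for most of their length. The TCF/LEF core was searched on both strands as CTTTGAA or CTTTGAT and as CTTTGTA or else CTTTGTT. It matched in 1 of the 4 Lef1 windows and in 0 of the 2 Tcf7 windows, where 16.9% of the 32851 windows of all genes held a match. The Lef1 match was CTTTGTA on the opposite strand, 147 bases before the start at its first base, and is in capitals below. The Lef1 window printed is the one with the match, at a start well inside the gene. Both Tcf7 windows also lie inside their gene, reaching 52283264 and 52282845, short of its 5' end at 52283383. Sequence before that end was therefore not searched. G and C made up 76.3% of the Tcf7 window printed and 64.3% of the other, and 43.7% of the Lef1 window printed and 67.3%, 67.3% and 51.7% of the others. A match describes letters only.
Tcf7, minus strand, chr11:52282965-52283264: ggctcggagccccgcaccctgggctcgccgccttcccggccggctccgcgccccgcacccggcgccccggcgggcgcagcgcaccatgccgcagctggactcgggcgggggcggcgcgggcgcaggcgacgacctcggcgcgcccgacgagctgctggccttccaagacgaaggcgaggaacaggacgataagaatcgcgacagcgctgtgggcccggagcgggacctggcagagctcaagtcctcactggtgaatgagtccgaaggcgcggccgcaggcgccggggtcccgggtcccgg
Lef1, plus strand, chr3:131156044-131156343: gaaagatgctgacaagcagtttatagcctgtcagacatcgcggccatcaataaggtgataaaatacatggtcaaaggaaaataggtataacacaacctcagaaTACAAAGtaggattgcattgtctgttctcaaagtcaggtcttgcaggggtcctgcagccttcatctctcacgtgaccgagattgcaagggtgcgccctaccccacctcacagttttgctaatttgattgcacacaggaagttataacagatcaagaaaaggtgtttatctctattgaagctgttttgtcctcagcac

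Tcf7 was the broad gene of the pair and Lef1 the restricted one. Tcf7 was detected in 506 of the 610 cells and Lef1 in 262. Detection was nearly all or none, since 7 Tcf7 reactions (1.38% of those detected) and 6 Lef1 reactions (2.29%) lay at a threshold cycle of 20 or more. The median threshold cycle of detected reactions was 13.4 for Tcf7 and 14.02 for Lef1.

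In B6 DN1d, Tcf7 was detected in 62.5%, 58.6% and 60.5% of the cells of runs 1 to 3. In Rag1-/- cells the shares were 98.9%, 92.3% and 95.1%, 91.9% for Tcrd-/- (exact 95% interval 83.9% to 96.7%) and 100% for DN2 (95.4% to 100%). The B6 DN1d runs lay below all others and close together, and the other populations overlapped in their intervals. Lef1 was detected in 47.2%, 47.1% and 50.6% of B6 DN1d cells, and in 30.3%, 15.4% and 41.5% of Rag1-/- cells. It was detected in 91.9% of Tcrd-/- cells (83.9% to 96.7%) and in 7.69% of DN2 cells (2.88% to 15.99%). The order of Lef1 was Tcrd-/-, B6 DN1d, Rag1-/- and DN2, in which the Rag1-/- runs spread widely and B6 DN1d runs sat above the highest of them. These intervals cover counting error only.

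**Figure D1:**
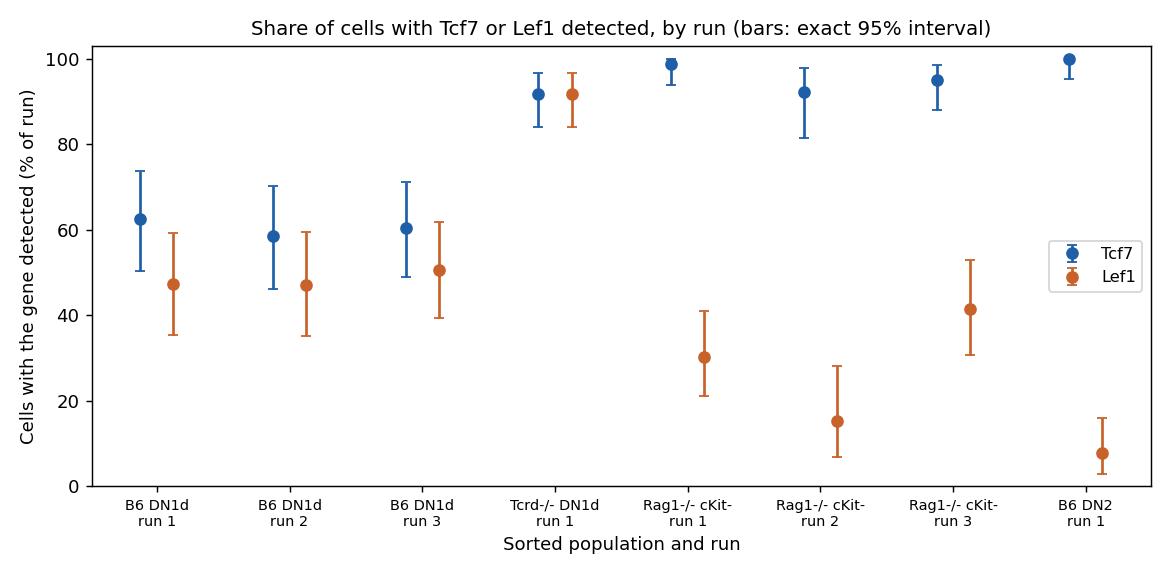
Share of cells with Tcf7 (blue) or Lef1 (orange) detected in each of the 8 runs, in percent, with exact 95% intervals as bars. The Tcf7 points of the 3 B6 DN1d runs lie at 58.6% to 62.5%, and Lef1 falls to 7.69% in the DN2 run while Tcf7 reaches 100%.

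The tests used limma on 1 value per run over the 47 assays detected in any cell. All 78 DN2 cells had Tcf7 detected, so the size of a Tcf7 logit difference with DN2 depends on the 0.5 added to each side of a share. For detection, the logit of the share differed between DN2 and B6 DN1d by 4.63 ± 0.56 (SE) for Tcf7 (adjusted p = 2.57e-07) and by -2.35 ± 0.52 for Lef1 (adjusted p = 0.000451), against 66% of all assays that passed in that comparison. Tcrd-/- exceeded B6 DN1d by 1.94 ± 0.56 for Tcf7 (adjusted p = 0.00610) and 2.43 ± 0.52 for Lef1 (adjusted p = 0.000581), where 55.3% of assays passed. Rag1-/- exceeded B6 DN1d by 2.68 ± 0.40 for Tcf7 (adjusted p = 7.10e-06) and differed by -0.87 ± 0.37 for Lef1 (adjusted p = 0.0483), where 59.6% passed. The Lef1 call against Rag1-/- rested on single runs: it did not pass in 5 of 6 fits that left out one of these runs, at differences of -0.93 to -0.51. In this fit Tcf7 was higher in all 3 other populations than in B6 DN1d, while Lef1 was higher in Tcrd-/- and lower in DN2 and Rag1-/-. With the count of other detected genes held fixed, the Tcf7 calls in Tcrd-/- and DN2 and the Lef1 call in Tcrd-/- did not pass, with values given below. These shares of passing assays are high, and a pass is read against them.

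Between the other populations, the Lef1 difference passed in each pair and the Tcf7 difference in the pairs with DN2. The size of these Tcf7 differences depends on the 0.5 added to each side. Tcrd-/- and DN2 had 1 run each, so that the SE and p of their difference come wholly from the spread of the B6 DN1d and Rag1-/- runs. With that spread assumed, Tcrd-/- exceeded DN2 by 4.77 ± 0.64 for Lef1 (adjusted p = 3.31e-06) and differed by -2.70 ± 0.69 for Tcf7 (adjusted p = 0.00188), where 68.1% of assays passed. Rag1-/- exceeded DN2 by 1.47 ± 0.52 for Lef1 (limma, adjusted p = 0.0203) and differed by -1.95 ± 0.56 for Tcf7 (adjusted p = 0.00527), where 57.4% passed. Without Rag1-/- run 1 or run 3 the Lef1 difference was 1.41 or 1.17 and did not pass (limma, adjusted p = 0.0817 and 0.107). On the arcsine scale, neither the Lef1 nor the Tcf7 difference of Rag1-/- from DN2 passed. Rag1-/- differed from Tcrd-/- by -3.30 ± 0.52 for Lef1 (limma, adjusted p = 1.48e-05), where 57.4% passed. For Tcf7 that difference was 0.74 ± 0.56 with an interval of -0.43 to 1.92, which did not pass (adjusted p = 0.250).

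Related HMG box factors and T lineage assays were counted from lists, since the panel held none of the Wnt pathway genes sought. Of the 5 HMG box genes (Tcf7, Lef1, Sox13, Sox4 and Tox), 4 were detected in more DN2 than B6 DN1d cells and 1, Lef1, in fewer, 5 were detected in more Tcrd-/- cells, and in Rag1-/- cells 2 were higher, 2 lower and 1 did not pass. Tcf7 moved with Tox in all 3 comparisons, whereas Lef1 moved with Sox13 in Tcrd-/- and Rag1-/- and against it in DN2, where Sox13 was detected in 88.5% of cells. Of 10 T lineage assays, 7 were higher in DN2, 6 in Tcrd-/- and 3 in Rag1-/-, where 1 was lower. Over all 47 assays, 21 were higher and 10 lower in DN2, 26 higher and 0 lower in Tcrd-/-, and 16 higher and 12 lower in Rag1-/-, so that the T lineage counts in Tcrd-/- and Rag1-/- were near the background. The median logit differences were 3.11, 2.43 and -0.19 for the HMG box genes, 3.81, 2.03 and 0.43 for the T lineage assays and 0.99, 1.34 and 0.41 for all assays, in the order DN2, Tcrd-/- and Rag1-/-. The HMG box counts and medians include Tcf7 and Lef1 themselves, so they are no separate evidence on the pair. The Tcrd-/- median of 2.43 is the difference of Lef1 itself.

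The number of assays detected per cell moved with these groups. The fit that follows was a penalised logistic fit within each run. All 78 DN2 cells had Tcf7 detected, so its Tcf7 values for DN2 depend on the penalty and do not measure a lost difference. In the Tcrd-/- run only 7 cells lacked Tcf7, and these had few other assays detected. Their means were 19.2 with neither gene and 19.5 with Lef1 alone, beside 29.96 in cells with both. The Tcf7 values for Tcrd-/- at a count of 24 thus rest on few cells and in part on the penalty, whether or not they passed. In a fit with the count of other detected genes held at 24, the Tcf7 difference of Tcrd-/- from B6 DN1d turned to -1.66 (adjusted p = 0.302), that of DN2 fell to 2.14 (adjusted p = 0.0695) and the Lef1 difference of Tcrd-/- fell to 0.377 (limma, adjusted p = 0.620). In the same fit the Tcf7 difference of Rag1-/- from DN2 turned to 0.877 (adjusted p = 0.424), and that of Rag1-/- from Tcrd-/- was 4.68 and passed (limma, adjusted p = 0.00206). The Lef1 differences of DN2 and Rag1-/- from B6 DN1d were -3.94 and -1.63 there and passed (limma, adjusted p = 8.48e-05 and 0.00303), as did the Tcf7 difference of Rag1-/- from B6 DN1d, at 3.02 (adjusted p = 0.00247).

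Within the detected cells, the Tcf7 run means before any scaling to Gapdh were also lowest in B6 DN1d. Its mean level where detected was 8.76, 7.70 and 9.72 in the B6 DN1d runs, 10.74, 10.07 and 10.27 in Rag1-/- runs, 11.38 for Tcrd-/- and 11.99 for DN2. The B6 DN1d runs lay below all others on this scale. For Lef1 the means were 9.54, 8.27 and 10.19 in B6 DN1d, 9.23, 9.28 and 8.97 in Rag1-/-, 10.83 in Tcrd-/- and 8.16 in DN2, so that these groups overlapped except for the Tcrd-/- run above and the DN2 run below. Among the B6 DN1d runs, run 2 was the lowest for both genes and also for Gapdh, at 14.2. With Gapdh subtracted in each detected cell, Tcf7 stood at -6.41, -6.42 and -4.92 in B6 DN1d, -4.91, -5.02 and -4.54 in Rag1-/-, -3.79 in Tcrd-/- and -3.16 in DN2. On that scale run 2 lay beside run 1, and B6 DN1d run 3 lay above Rag1-/- run 2, so that those groups overlapped.

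**Figure D2:**
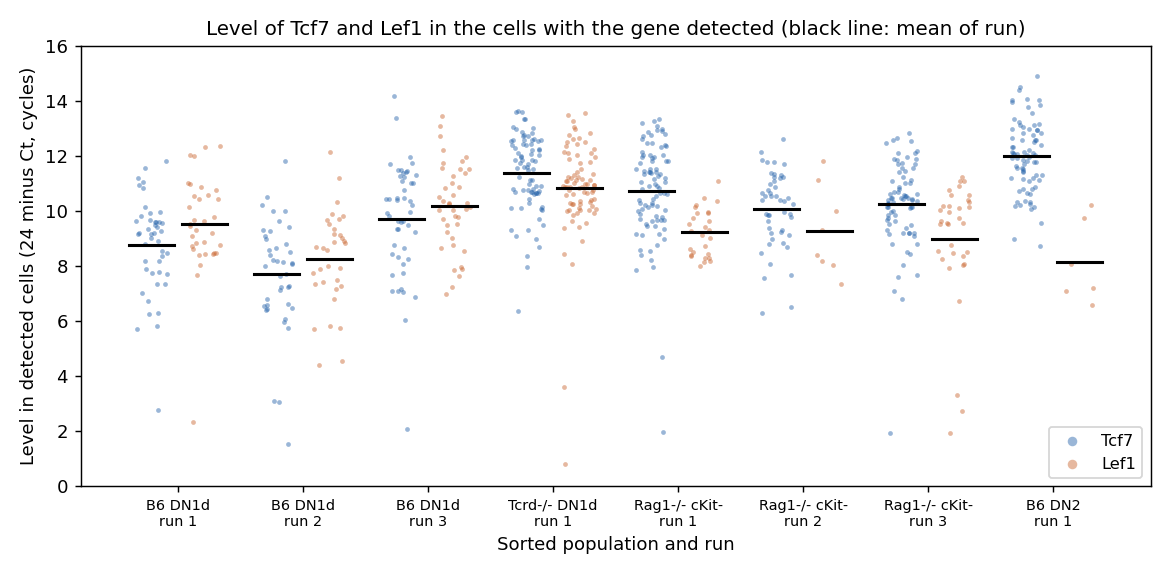
Level (24 minus the threshold cycle, in cycles) of Tcf7 (blue) and Lef1 (orange) in each cell with the gene detected, by run, with the run mean as a black line. Levels of Tcf7 centre lowest in B6 DN1d and highest in the DN2 run, at 11.99.

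Of the 30 assays with 5 or more detected cells in every run, Tcf7 was 3.27 ± 0.88 cycles higher in DN2 than B6 DN1d in detected cells (limma, adjusted p = 0.0311), where 10.0% of assays passed, and Lef1 differed by -1.18 ± 0.86 (adjusted p = 0.347). The Tcf7 difference of Tcrd-/- was 2.66 ± 0.88 (adjusted p = 0.0894), where 6.67% of assays passed, and that of Rag1-/- 1.63 ± 0.62 (adjusted p = 0.171), where 10.0% passed. Lef1 differed by 1.50 ± 0.86 (limma, adjusted p = 0.271) and -0.18 ± 0.61 (adjusted p = 0.865) in these comparisons. The Tcf7 call in DN2 did not pass without B6 DN1d run 1, Rag1-/- run 2 or Rag1-/- run 3.

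Averaged over all cells, detected or not, Tcf7 levels were 5.48, 4.51 and 5.88 in B6 DN1d, 10.46 in Tcrd-/-, 10.62, 9.29 and 9.77 in Rag1-/- and 11.99 in DN2. Lef1 levels were 4.51, 3.90 and 5.16 in B6 DN1d, 9.95 in Tcrd-/-, 2.80, 1.43 and 3.72 in Rag1-/- and 0.627 in DN2. Tcf7 was 6.71 ± 0.73 cycles higher in DN2 (limma, adjusted p = 0.000881; 57.4% of assays passed), 5.17 ± 0.73 higher in Tcrd-/- (adjusted p = 0.00415; 61.7% passed) and 4.61 ± 0.52 higher in Rag1-/- (adjusted p = 0.00202; 55.3% passed). Lef1 was 5.43 ± 0.97 cycles higher in Tcrd-/- (limma, adjusted p = 0.00765) and fell by 3.89 ± 0.97 in DN2 (adjusted p = 0.0289), and its difference of -1.87 ± 0.69 in Rag1-/- did not pass (adjusted p = 0.0706). The Lef1 call in DN2 ended without B6 DN1d run 1, B6 DN1d run 3 or Rag1-/- run 1, at -3.57 to -3.90.

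The same cells carried both genes far more in some populations than others. In B6 DN1d, both were detected in 27, 24 and 38 cells of the 3 runs, Tcf7 alone in 18, 17 and 11, Lef1 alone in 7, 9 and 3, and neither in 20, 20 and 29. In Tcrd-/- 77 of 86 cells had both. In Rag1-/- 69 of 223 cells had both and 145 had Tcf7 alone, and Lef1 alone was seen in 0 cells. In DN2, 6 cells had both and 72 had Tcf7 alone. All 69 Lef1-positive Rag1-/- cells and all 6 in DN2 had Tcf7 detected, although Tcf7 was in 214 of the 223 and all 78 cells there. In B6 DN1d, 89 of 108 Lef1-positive cells had Tcf7 (82.4%), at 79.4%, 72.7% and 92.7% in runs 1 to 3. The exact 95% interval of the pooled share, 73.9% to 89.1%, covers counting error only and leaves out the spread between runs. The lowest and highest runs lay outside it. Of the 88 Tcf7-negative cells pooled over the 3 runs, 19 (21.6%) had Lef1.

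**Figure D3:**
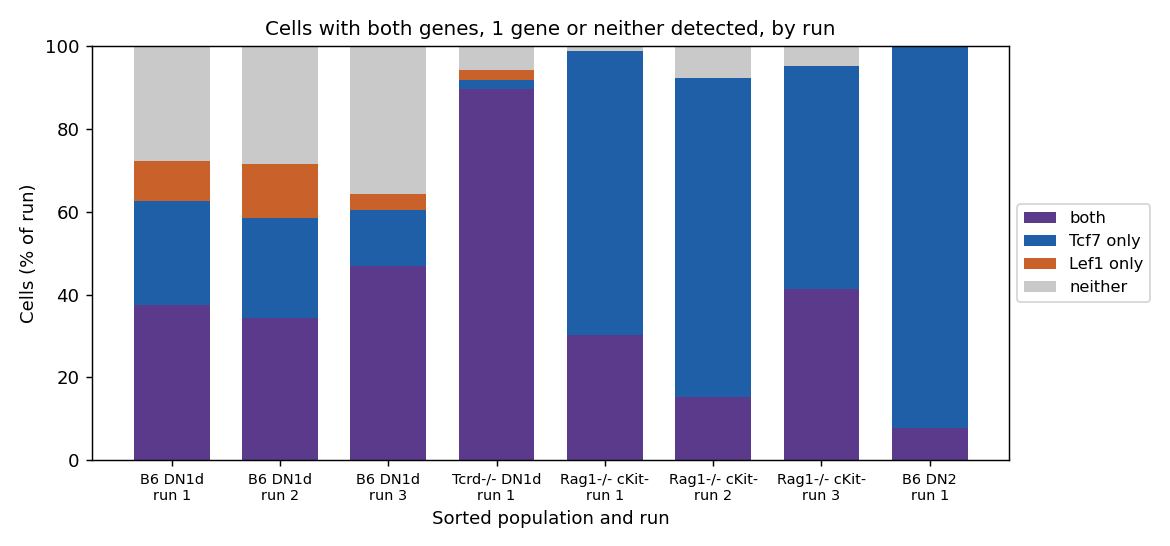
Share of the cells of each run with both genes detected (purple), Tcf7 alone (blue), Lef1 alone (orange) or neither (grey), in percent. Cells with Lef1 alone appear in the B6 DN1d and Tcrd-/- runs and in 0 of the 223 Rag1-/- and 0 of the 78 DN2 cells.

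The gap between the genes was set side by side in the groups with 3 runs. Lef1 minus Tcf7 share was -12.2 ± 2.78 percentage points in B6 DN1d (SD, n = 3) and -66.4 ± 11.8 in Rag1-/- (n = 3). The groups did not overlap, and an exact two-sided permutation test over the 6 runs gave p = 0.1, the smallest that 3 against 3 runs can give, so that this test could not pass 0.05.

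In cells with both genes, Tcf7 exceeded Lef1 by -0.46, -0.63 and -0.30 cycles in B6 DN1d runs, 0.50 in Tcrd-/-, 1.15, 1.08 and 1.35 in Rag1-/- and 4.37 in DN2. Assays differ in efficiency, so the sign carries no order of abundance, and the shift between groups alone can be read. The levels of Tcf7 and Lef1 across the cells with both had Pearson correlations of 0.20, 0.74 and 0.15 in B6 DN1d runs, 0.39 in Tcrd-/-, 0.36, 0.24 and 0.020 in Rag1-/- and 0.62 in the 6 DN2 cells. Spearman values were 0.44, 0.63 and 0.16 in the B6 DN1d runs. These values were uneven between runs of one population, and the cells behind each share a run.

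**Figure D4:**
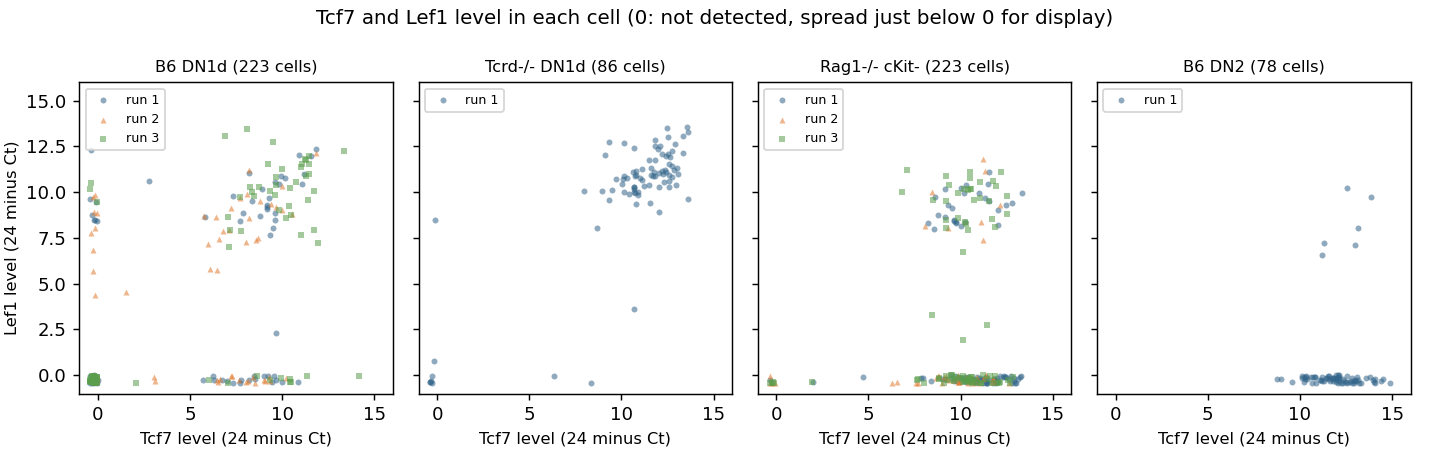
Tcf7 level against Lef1 level in each cell, by population, in units of 24 minus the threshold cycle. Points spread just below 0 are cells without that gene detected, and 77 of the 86 Tcrd-/- cells lie in the region where both are detected.

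The number of other assays detected went with the pair in B6 DN1d cells. Cells with both had 21.9 ± 1.16 other assays detected (SD, n = 3 runs), cells with Tcf7 alone 19.4 ± 0.40, cells with Lef1 alone 17.4 ± 1.60 and cells with neither 14.5 ± 0.23, while mean Gapdh levels were 14.6 to 14.7 in all. Sox13 was detected in 66.7% ± 10.1 of cells with both, 50.03% ± 15.4 with Tcf7 alone, 29.6% ± 27.96 with Lef1 alone and 8.33% ± 10.4 with neither. The granzyme gene Gzma was detected in 33.76% ± 13.996 of cells with both and in 0 of the 69 cells with neither.

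Partner genes were tested by the natural log odds ratio of detection in the same cell, in each B6 DN1d run, over the 40 assays that could be tested. For Tcf7, 23 of 40 partners passed (57.5%; limma, Benjamini-Hochberg), 18 above 0 and 5 below. For Lef1, 22 of 40 passed (55%), 18 above 0 and 4 below. Of the 39 partners tested for both, 19 passed for both, and all 19 had the same sign. Tcf7 and Lef1 were each other's partners at 1.95, with runs of 1.40, 1.11 and 3.34 (limma, adjusted p = 0.00631 with Tcf7 as anchor, 0.000569 with Lef1). With Lef1 as anchor, limma pooled the spread of all partners into 1 SE of 0.47, with 80 degrees of freedom. The p-values with Lef1 in B6 DN1d thus do not measure how a single partner varied between runs.

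All 4 tested HMG box partners, the other gene of the pair among them, were higher with each gene, at a list median of 2.20 with Tcf7 and 1.75 with Lef1, beside medians of 0.95 and 0.85 over all partners. Tox, an HMG box factor of T and innate lymphoid development, was detected in 75.6%, 78.05% and 97.96% of Tcf7-positive B6 DN1d cells of runs 1 to 3 and in 18.5%, 34.5% and 6.25% of Tcf7-negative cells, a mean log odds ratio of 3.44 (adjusted p = 0.000942) and 2.37 with Lef1 (limma, adjusted p = 2.37e-05). Sox13 was detected in 71.1%, 60.98% and 51.02% of Tcf7-positive and 14.8%, 20.7% and 3.13% of Tcf7-negative cells, at 2.45 with Tcf7 and 1.55 with Lef1. Sox4 was at 1.18 with Tcf7 and 1.40 with Lef1. Within tertiles of the number of other genes detected, neither passed: Sox13 fell to 1.18 (limma, adjusted p = 0.0556) and Sox4 to 0.42 (adjusted p = 0.244) with Tcf7, and to 0.61 (adjusted p = 0.369) and 0.67 (adjusted p = 0.315) with Lef1.

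Of the 9 tested genes of the Tgd17 programme, 8 passed above 0 with Tcf7 and 6 with Lef1, beside 18 of all 40 partners for each gene. Compared within tertiles of the number of other genes detected, Blk (limma, adjusted p = 0.0543), Cd163l1 (0.111), Etv5 (0.174), Sox13 (0.0556) and Maf (0.235) did not pass with Tcf7. With Lef1, the 2 partners that passed above 0 within tertiles were Tox and Tcf7, so that no gene of the Tgd17 programme did. Gzma was at 2.64 with Tcf7 and 1.86 with Lef1. The Vg2-Jg1 junction, a rearranged gamma chain gene, was at 2.63 and 1.80, being in 68.9%, 43.9% and 71.4% of Tcf7-positive and 11.1%, 10.3% and 6.25% of Tcf7-negative cells. Ccr9, a thymic chemokine receptor gene, was at 2.34, Myb, a progenitor factor gene, at 2.44, and Blk, a Src family kinase gene, at 2.26 with Tcf7. Of the 7 tested T lineage assays, 4 passed above 0 with each gene, beside 18 of all 40 partners. These were Myb, Tcf12 (2.02 with Tcf7 and 1.40 with Lef1), the E47 form of Tcf3 (1.66 and 1.25) and Notch1 (1.12 and 1.30). Within tertiles, Tcf12 and Notch1 passed with neither gene. Bcl11b, the T lineage commitment factor, did not pass with either gene (0.89, adjusted p = 0.110; 0.49, limma adjusted p = 0.360), nor did Runx1 or the E12 form of Tcf3. Zbtb16, which encodes PLZF, passed with Lef1 at 1.25, with runs from 0.36 to 2.87, and was at -0.14 with Tcf7. It did not pass with Lef1 within tertiles, and was detected in 8.33%, 12.9% and 3.70% of B6 DN1d cells of runs 1 to 3. Cells with Lef1 alone bore Zbtb16 in 28.04% ± 5.57, but these were 19 cells.

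All 3 tested myeloid genes and Cdh1 ran the other way, as did Bhlhe40 with Tcf7. Csf2rb2, a cytokine receptor subunit gene, was at -3.35 with Tcf7 and -2.97 with Lef1, Gp49a at -2.71 and -2.46, and Spi1, which encodes PU.1, at -2.43 and -2.37. Cdh1, which encodes E-cadherin, was at -3.20 and -2.59. Bhlhe40 passed with Tcf7 at -1.23 (limma, adjusted p = 0.0381) but not within tertiles (adjusted p = 0.111), and did not pass with Lef1, at -0.79. A myeloid marker was detected in 9, 12 and 23 B6 DN1d cells of runs 1 to 3, of which 0, 2 and 3 had Tcf7 and 0, 2 and 1 had Lef1. Of the cells with neither gene, 9 of 20, 9 of 20 and 20 of 29 carried such a marker. In the other B6 DN1d cells Tcf7 was detected in 71.4%, 67.2% and 79.3% and Lef1 in 53.97%, 53.4% and 68.97%. Leaving these cells out lowered the Lef1 partners that passed from 22 to 7 of 36, while 19 of 36 passed with Tcf7.

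**Figure D5:**
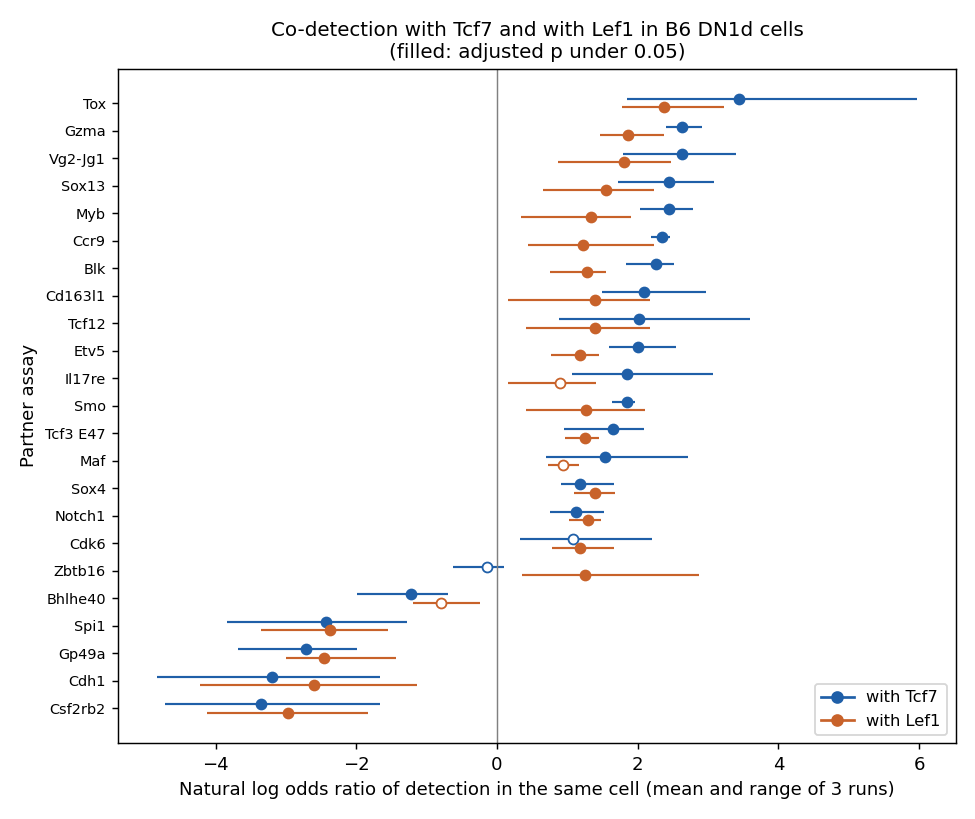
Natural log odds ratio of detection in the same B6 DN1d cell with Tcf7 (blue) or Lef1 (orange), as the mean of 3 runs with the range of runs, for partners past the threshold for either; filled points had an adjusted p under 0.05. Tox lies highest at 3.44 with Tcf7, and Csf2rb2 lowest at -3.35.

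The counts depended on a few runs. Without B6 DN1d run 2, 0 of 40 partners passed for Tcf7 (limma; 18 at an unadjusted p under 0.05), and without run 3, 0 of 40 passed for Lef1 (9 unadjusted). In these fits the moderated degrees of freedom fell to 2.5 and 3.0, from 12.6 and 80, while the median log odds ratios were 1.09 and 0.80, beside 0.95 and 0.85 with all runs. Without run 2, 8 passed for Lef1. Within tertiles of the number of other genes detected, 10 partners passed for Tcf7 (6 above 0) and 6 for Lef1 (2 above 0). There Tox was at 1.87 with Tcf7 (limma, adjusted p = 0.0383) and 1.59 with Lef1 (adjusted p = 0.00340), and Myb, Ccr9, Gzma and Vg2-Jg1 passed with Tcf7. The pair itself was at 1.21, past the threshold with Lef1 as anchor (limma, adjusted p = 0.0353) and not with Tcf7 (adjusted p = 0.0896). Among the cells with Tcf7 detected, 0 of 35 partners passed for Lef1 (limma, adjusted; 6 at an unadjusted p under 0.05).

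In Rag1-/- cells, 0 of 30 partners passed for Lef1 (0%), with 2 at an unadjusted p under 0.05: Sox13, at 1.63, and Runx1, at 1.79. Sox13 was detected in 25.9%, 12.5% and 26.5% of Lef1-positive and 4.84%, 2.27% and 8.33% of Lef1-negative Rag1-/- cells. The difference between Rag1-/- and B6 DN1d in the partners of Lef1 gave 0 of 29 past the threshold (0%), with 4 at an unadjusted p under 0.05 in limma. Among these, named after their values were seen, Tox differed by -2.48 ± 0.63 and Notch1, the receptor gene of T lineage commitment, by -1.92 ± 0.53, both at an adjusted p of 0.0563. Without Rag1-/- run 3, 2 Lef1 partners passed in Rag1-/- cells and 4 passed for the difference. Tox was in 75% to 85.3% of Lef1-positive and 75% to 91.9% of Lef1-negative Rag1-/- cells. Tcf7 was in 95.4% of Rag1-/- cells, so that its partners could not be tested.

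Over the 8 runs, the assays whose share of cells lay nearest to Tcf7 were Tox, with a mean absolute difference of 6.56 percentage points, Id2 (9.48) and Il7r (10.9). For Lef1, Ccr9 lay nearest at 6.20 percentage points, followed by Blk at 11.3.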

How the data were processed

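Per the labels, single cells were captured, lysed and reverse transcribed on a Fluidigm C1, preamplified for 18 cycles and read in 30 cycles of quantitative PCR. The authors deposited 1 threshold cycle per assay and cell, not normalised. A low cycle is a high expression, and 50.5% of the 29280 reactions stood at the ceiling of 24. The sources used here do not say how cycles were called or who set the ceiling.

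Cells were grouped by the labels, and a run by the token in the cell's title. Per run, each gene gave the empirical logit of its share of cells (0.5 added to each side), its mean level, its mean level in detected cells (5 or more in every run), and the natural log odds ratio of detection with Tcf7 or Lef1 (0.5 added; both assays detected in 5% to 95% of the cells concerned). limma 3.58.1 (R 4.3.3) fitted each measure, with 8 runs in 1 fit and a mean per group for shares and levels. A group of 1 run took the spread of the other groups. Benjamini-Hochberg adjustment ran over all tested assays, with a threshold of 0.05. Co-detection fits used the runs of the groups named. The fits were tested on simulated data. Single shares have exact (Clopper-Pearson) intervals.

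The pair, the gene lists (HMG box, T lineage, Tgd17 programme, innate lymphoid, myeloid) and the tests were chosen with earlier results of these data known. No assay of the Wnt pathway list was in the panel. Named partners were up to 10 passing partners in each direction, by size of the log odds ratio, the other gene of the pair and a few T lineage and Sox genes. For likeness, the nearest assays by share of cells over the runs were taken. A gene that these rules also name is not reported here, though counts include it. Alternatives were leaving out each run, stricter cycle thresholds of 22 and 20, an arcsine scale, a fixed number of other genes, cells with 10 or more assays, the median, Gapdh subtraction and tertiles. Leaving out cells with a myeloid marker, in all populations but DN2, was added after seeing the data. Promoter windows come from RefSeq (GRCm38.p6). Tables were made with pandas 2.3.3, numpy 2.4.6 and scipy 1.17.1 under Python 3.11.15, and plots with matplotlib 3.10.9.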

Additional observations from a re-analysis of the deposited data

How the results depend on the processing

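Of the 329 settings tried on the values that answer a comparison, 284 were classed as unchanged. For the difference of a gene, this means the same direction and side of the threshold. A count of passing partners has no such side, and the permutation test of the gap could not pass in any setting. For these values the class does not show that a call was kept. No paired analysis was possible because run numbers name runs of separate populations. The cause of each change was not tested, except that leaving out a run lowers the degrees of freedom.

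Leaving out 1 run at a time, the Lef1 logit difference of Rag1-/- from B6 DN1d ranged from -1.17 to -0.51 and that from DN2 from 1.17 to 1.83. The Lef1 level difference of DN2 from B6 DN1d ranged from -4.21 to -3.57 cycles and that of Rag1-/- from -2.41 to -1.26. Where detected, the Tcf7 level differences from B6 DN1d ranged from 2.75 to 3.76 for DN2, 2.14 to 3.16 for Tcrd-/- and 1.12 to 2.13 for Rag1-/-, and those of Lef1 from -1.71 to -0.75 for DN2 and -0.71 to 0.25 for Rag1-/-. Partners past the threshold in B6 DN1d ranged from 0 to 26 for Tcf7 and 0 to 19 for Lef1, with the pair at 1.25 to 2.37. Lef1 partners ranged from 0 to 2 in Rag1-/- and from 0 to 4 for the difference. Single Lef1 partners that turned were Maf, from -0.88 to 1.06 in Rag1-/- and from -1.82 to 0.12 for the difference between Rag1-/- and B6 DN1d, and for that difference Sox13, from -0.37 to 0.42 (-0.023 without Rag1-/- run 1), and Bcl11b, from -0.45 to 0.35 (-0.20 without B6 DN1d run 3).

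At a fixed number of other genes, Tcf7 detection differed by 2.14 (DN2 from B6 DN1d), -1.66 (Tcrd-/- from B6 DN1d), 0.88 (Rag1-/- from DN2) and 4.68 (Rag1-/- from Tcrd-/-), and Lef1 by 0.377 (Tcrd-/- from B6 DN1d). These Tcf7 values involve DN2 or Tcrd-/-, where nearly every cell had Tcf7, and depend on the penalty. On the arcsine scale Lef1 in Rag1-/- against B6 DN1d (-0.21) and DN2 (0.28) and Tcf7 in Rag1-/- against DN2 (-0.20) did not pass. With the median over cells, Lef1 differed by -2.33 in DN2 and 8.53 in Tcrd-/- and did not pass. With Gapdh subtracted, Lef1 in Rag1-/- passed at -2.42. With only the groups compared, Tcf7 where detected was 3.27 higher in DN2 and did not pass. Tertiles left 10 Tcf7 and 6 Lef1 partners and the pair at 1.21. In Tcf7-positive cells 0 Lef1 partners passed in limma (6 at an unadjusted p under 0.05) and Bcl11b turned to -0.29. At a cycle threshold of 22, 1 partner differed and Bcl11b was at -0.0071. Cells with a myeloid marker were left out of all populations but DN2, where 63 of 78 cells carried one and stayed in. In that setting Tcf7 detection differed by -1.11 (Tcrd-/- from DN2, not passing) and -0.77 (Rag1-/- from Tcrd-/-, turned). Tcf7 where detected was 2.69 higher in Tcrd-/- and passed, and 7 Lef1 partners passed.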
